A study of Mus musculus with 6 samples.

Results

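The transcripts of 9 Toll-like receptors and of their co-receptor Cd14 were followed in cells washed from the lungs of mice. The 10 genes were taken by symbol (Tlr1, Tlr2, Tlr3, Tlr4, Tlr6, Tlr7, Tlr8, Tlr9, Tlr13 and Cd14) from a table of 22800 gene symbols. They were chosen with earlier results of these data known. All 10 were in the table, and all 10 reached the level required for testing, 1 FPKM in at least 3 libraries (FPKM are fragments counted for a transcript, scaled to its length and to the size of the library). The material was bronchoalveolar lavage fluid, the saline wash of airways and alveoli. The control group was given vehicle (n = 3 libraries, replicates 2, 3 and 4 by label), and the treated group was given 20 µg of sulfatide, a sulfated glycolipid, by injection into the peritoneal cavity (n = 3, replicates 1, 2 and 3). The labels give no strain, sex, age, time of collection or composition of the vehicle, and no statement on whether any group underwent the lung ischemia and reperfusion that the title of the series names. They do not tie libraries to individual mice, so p-values here describe the spread between these libraries, which may be technical.

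Toll-like receptors are membrane proteins of macrophages and other immune cells that bind microbial molecules and, through the adaptors Myd88 and Ticam1 (also called TRIF), switch on inflammatory and interferon genes. Those at the cell surface read lipids and lipoproteins: Tlr4 with Ly96 (MD-2) reads lipopolysaccharide, and Tlr2 paired with Tlr1 or Tlr6 reads bacterial lipopeptides. Those in endosomes read nucleic acids: Tlr3 double-stranded RNA, Tlr7 single-stranded RNA, Tlr9 unmethylated CpG DNA and Tlr13, a receptor of mice that humans lack, bacterial ribosomal RNA. Tlr8 is the closest relative of Tlr7. Cd14 is an anchored surface protein that hands lipopolysaccharide and other ligands to the receptors.

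Several members lie side by side in the mouse genome (GRCm38, GENCODE M21 gene models). Tlr1 (chr5:64924679-64933563, minus strand) and Tlr6 (chr5:64952031-64960097, minus strand) are separated by 18467 bases, and Tlr8 (chrX:167242696-167264329, minus strand) and Tlr7 (chrX:167304929-167330558, minus strand) by 40599 bases. Tlr13 is also on the X chromosome (106143204 to 106160493). Over the 2280 columns of their best local alignment the longest protein-coding transcripts of Tlr1 and Tlr6 were 75.1% identical, the most alike of the receptor pairs by number of identical bases. Of the 150-base windows of the Tlr1 transcript, 4.83% occur unchanged in that of Tlr6, and none of the Tlr7 transcript occur in that of Tlr8. The longest stretch that Tlr1 and Tlr6 share is 229 bases, all protein-coding, at chr5:64925537-64925765 in exon 4 of 4 of Tlr1 and at chr5:64953828-64954056 in exon 2 of 2 of Tlr6, both on the minus strand. It is shown because a fragment from within it can be assigned to either gene, so a small part of the split between them is uncertain.
Shared by Tlr1 and Tlr6: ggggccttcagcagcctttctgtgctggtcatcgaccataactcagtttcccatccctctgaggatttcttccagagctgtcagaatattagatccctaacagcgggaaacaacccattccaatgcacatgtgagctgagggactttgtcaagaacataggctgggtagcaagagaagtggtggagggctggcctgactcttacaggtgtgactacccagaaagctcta

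Promoter windows from RefSeq (GRCm38.p6) were found for 7 of the 10 members, 9 windows in all; Tlr4, Tlr7 and Cd14 had no entry. The 250 bases before each RefSeq start were searched on both strands for the core of the interferon-stimulated response element (TTTC, any 2 bases, TTTC), a form of the NF-kappaB site (GGG, any 2 bases, TTTCC) and GAGGAAG, the core bound by the macrophage factor PU.1. None of these motifs contains another. In all 32851 windows of the table their letters occurred in 2.98%, 1.41% and 10.6% of the 250-base stretches. Among members the first occurred in 1 of the 2 Tlr6 windows, as a pair of overlapping matches, the second in the Tlr3 window, and the third in the Tlr9 and Tlr13 windows and in 1 of the 2 Tlr1 windows. No match was found in the Tlr2 and Tlr8 windows. Not all windows lie upstream of the genes in the GENCODE models. Exons of those models cover 159 of the 250 bases of the Tlr2 window and 71 of the Tlr13 window. They cover 149 bases of the Tlr1 window and 49 of the Tlr6 window without a match. In the Tlr3 window 178 bases lie in an exon of Tlr3 or of the antisense gene Gm45542. The Tlr3 window and the Tlr6 window with matches lie inside the spans of their genes. The sites are shown as 30 bases each with the matches in capitals, to give the letters that matched. Of the members called lower below only Tlr3 has a site, because Tlr7 and Cd14 had no window and Tlr2 no match. The sites therefore cannot compare members that changed with members that did not. The Tlr3 site lies at chr8:45410572-45410601, the Tlr6 site at chr5:64959260-64959289, the Tlr1 site at chr5:64933564-64933593 (these 3 on the minus strand), the Tlr9 site at chr9:106222474-106222503 and the Tlr13 site at chrX:106143180-106143209 (both on the plus strand). A match describes the letters only and shows no binding.
Tlr3: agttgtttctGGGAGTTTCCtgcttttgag
Tlr6: ctattctTTTCTCTTTCACTTTCtgtttga
Tlr1: aattaaatgttgGAGGAAGtaggagcttga
Tlr9: ggagagtggaaaGAGGAAGgggttgagggg
Tlr13: aaaaaaagagaaGAGGAAGgaaatgtctca

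The libraries were alike in the number of genes present, and differed somewhat in estimated depth. Each held 10254 to 10350 genes at 1 FPKM or more. The number of fragments is not given. The depth relative to vehicle replicate 2, read from the most frequent ratio of low values, ranged from 0.850 in sulfatide replicate 3 to 1.20 in sulfatide replicate 2. Macrophage markers were abundant (summed FPKM of 6 genes 29533 to 34209 in vehicle and 26934 to 38107 in sulfatide). Lyz2 alone, at 25051 to 35891 FPKM, made up most of that sum. Adgre1, Cd68 and Csf1r were present in every library. None of the 6 was called by limma, and 3 had a negative log2 fold change. Fcgr1 (509 ± 182 and 316 ± 65.4 FPKM, limma adjusted p = 0.129) and Adgre1 (532 ± 39.3 and 433 ± 61.8 FPKM, limma adjusted p = 0.0888) were lower at an unadjusted p below 0.05. No share over all genes was counted at that threshold. Of 10 genes typical of alveolar macrophages 5 stayed below 1 FPKM in all 6 libraries, with Fabp1 and Krt79 listed at 0. The other 5 were tested, among them Marco at 59.96 to 183 FPKM and Chil3 at 19.3 to 45.6 FPKM. The alveolar macrophage list was therefore matched in part only.

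Cd14 was the most abundant member in every library, and Tlr2 the most abundant receptor. In FPKM, which is scaled to length and so allows genes to be compared, the order of mean levels in vehicle was Cd14, Tlr2, Tlr7, Tlr13, Tlr1, Tlr8, Tlr6, Tlr4, Tlr3 and Tlr9. In that order the ranges of Tlr7 and Tlr13, of Tlr8 and Tlr6, and of Tlr6 and Tlr4 overlapped, and those of the other neighbours did not. In sulfatide Tlr13 stood above Tlr7 and Tlr8 moved below Tlr6 and Tlr4, while the ranges of Tlr7 and Tlr1, of Tlr6 and Tlr4, and of Tlr4 and Tlr8 overlapped. The other 3 mouse receptors of the family were close to 0: Tlr5, the flagellin receptor, did not exceed 0.0600 FPKM in any library, Tlr12 0.0300 and Tlr11 0.190, and none of them was tested.

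**Figure D1:**
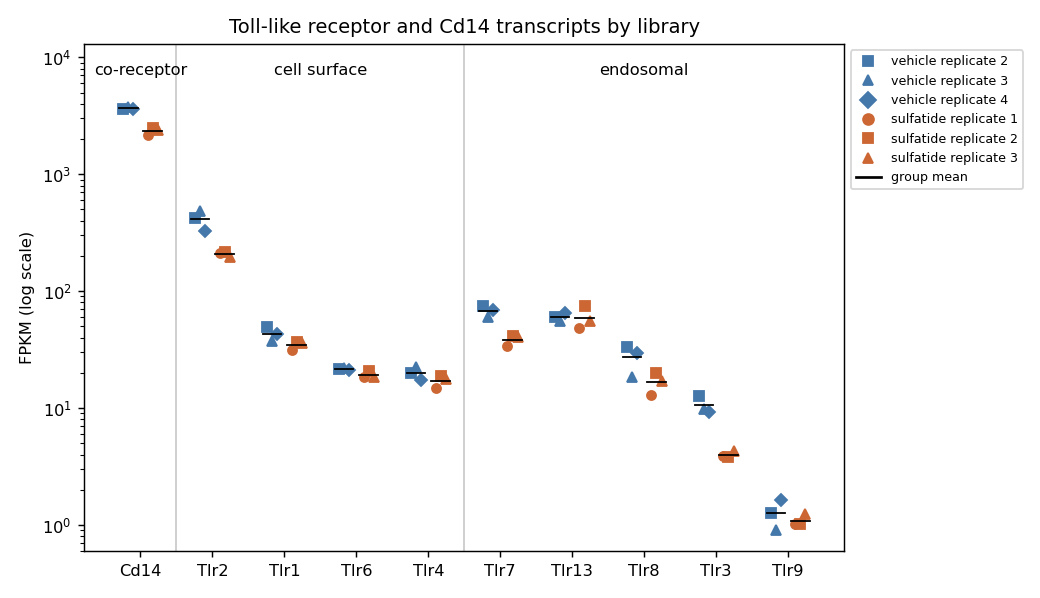
FPKM on a log axis for Cd14, the 4 surface receptors and the 5 endosomal receptors, with 1 symbol per library (blue, vehicle; orange, sulfatide; shape, replicate number) and a line at each group mean (n = 3). Cd14, Tlr2, Tlr7 and Tlr3 show separated groups, while the groups of Tlr13, Tlr4 and Tlr9 overlap.

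Sulfatide libraries had lower levels of Tlr3, Tlr2, Tlr7 and Cd14 than vehicle libraries, and no member was higher. Of the 10 members 4 were called lower by limma at an adjusted p below 0.05 (Benjamini-Hochberg over 10405 genes), against 18.7% of all genes tested called in either direction, 10.4% called lower and 8.31% called higher. At an unadjusted p below 0.05 limma gave 6 lower and 0 higher. The share of all genes at that looser threshold was not counted, so the 6 have no background to be set against. The estimated log2 fold change was negative for all 10, with a median of -0.47 against 0.04 over all genes tested. In 6 members (the 4 called, Tlr1 and Tlr6) each sulfatide library lay below each vehicle library, against 18.3% of all genes tested. The libraries hold mixed cells, so fewer cells that carry a receptor and less of its RNA per cell cannot be told apart.

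Tlr2, which pairs with Tlr1 or Tlr6 to read lipopeptides, was at 424, 487 and 326 FPKM in vehicle replicates 2, 3 and 4 and at 214, 217 and 197 FPKM in sulfatide replicates 1, 2 and 3. Every sulfatide library lay below every vehicle library, and the vehicle libraries were the more spread. The mean fell 1.97-fold, from 413 ± 81.2 to 209 ± 10.6 FPKM (SD, n = 3 each; log2 fold change -0.96 ± 0.14 SE, from values of log2(FPKM + 1), limma adjusted p = 0.00154). Its partner Tlr1 was at 49.1, 37.6 and 42.8 FPKM in vehicle and at 31.6, 36.7 and 35.8 FPKM in sulfatide. The groups of Tlr1 did not overlap, but vehicle replicate 3 was within 1 FPKM of sulfatide replicate 2. The difference of Tlr1 did not pass (log2 fold change -0.30 ± 0.12, limma adjusted p = 0.101). It passed in 3 of 15 alternative fits, among them without vehicle replicate 3 (0.0324) and after rescaling to TPM (0.0455). With replicate number as a block its adjusted p was 0.351. That fit takes its difference from the libraries numbered 2 and 3 only, because numbers 1 and 4 each occur in 1 group. The other partner, Tlr6, was at 21.5, 21.9 and 21.1 FPKM in vehicle and at 18.6, 20.9 and 18.5 FPKM in sulfatide, a difference of -0.15 on the log2 scale (95% interval -0.36 to 0.07, limma adjusted p = 0.307).

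Measured against its partners within the same library, Tlr2 was also lower after sulfatide. The Tlr2 to Tlr6 ratio of FPKM was 15.5 to 22.3 in vehicle and 10.4 to 11.5 in sulfatide, and the Tlr2 to Tlr1 ratio was 7.63 to 13.0 and 5.50 to 6.77. Neither ratio overlapped between groups. A ratio within a library does not depend on how that library was scaled, and with 3 against 3 libraries an exact permutation test cannot give a two-sided p below 0.1. The Tlr1 to Tlr6 ratio was 1.72 to 2.28 in vehicle and 1.70 to 1.93 in sulfatide, with overlap.

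Tlr4, the lipopolysaccharide receptor, was at 19.9, 22.4 and 17.5 FPKM in vehicle and at 14.9, 19.0 and 17.6 FPKM in sulfatide. The groups overlapped, with sulfatide replicates 2 and 3 above vehicle replicate 4. The difference of Tlr4 was -0.20 on the log2 scale (95% interval -0.49 to 0.08, limma adjusted p = 0.287). Cd14, which delivers lipopolysaccharide to Tlr4, was at 3597, 3733 and 3642 FPKM in vehicle and at 2179, 2508 and 2394 FPKM in sulfatide. Its groups lay far apart relative to their spread. The Cd14 mean fell 1.55-fold, from 3657 ± 69.6 to 2360 ± 167 FPKM (log2 fold change -0.63 ± 0.08, limma adjusted p = 0.00112). Within a library there was 167 to 208 times as much Cd14 as Tlr4 in vehicle and 132 to 146 times as much in sulfatide.

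Tlr3, the receptor that signals through Ticam1 alone, had the largest fall of the 10 members. It was at 12.8, 9.84 and 9.33 FPKM in vehicle and at 3.90, 3.78 and 4.33 FPKM in sulfatide. The lowest vehicle library held more than any sulfatide library, and the sulfatide libraries lay close together. The mean fell 2.66-fold, from 10.7 ± 1.87 to 4.00 ± 0.289 FPKM (log2 fold change -1.21 ± 0.14, limma adjusted p = 0.000444). Exons of Tlr3 overlap those of the antisense gene Gm45542 by 258 bases, and whether strand was used in counting is not given in the sources used here, so fragments of that stretch could stem from either gene. The deposited values hold no entry for Gm45542.

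Tlr7 was at 74.2, 60.3 and 69.6 FPKM in vehicle and at 34.1, 40.95 and 40.4 FPKM in sulfatide, without overlap. The Tlr7 mean fell 1.77-fold, from 68.1 ± 7.07 to 38.5 ± 3.81 FPKM (log2 fold change -0.81 ± 0.11, limma adjusted p = 0.00132). Its neighbour Tlr8 was at 33.6, 18.4 and 29.3 FPKM in vehicle and at 12.8, 19.9 and 17.1 FPKM in sulfatide. Vehicle replicate 3 lay below sulfatide replicate 2, so the groups of Tlr8 overlapped. The estimate for Tlr8 was close to that of Tlr7 but less precise (log2 fold change -0.66 ± 0.22, 95% interval -1.15 to -0.16, limma adjusted p = 0.0688). Without vehicle replicate 3 the adjusted p of Tlr8 was 0.00576 (log2 fold change -0.90), and it was 0.00596 with array weights. The Tlr7 to Tlr8 ratio was 2.21 to 3.28 in vehicle and 2.06 to 2.65 in sulfatide, with overlap.

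Tlr13 was at 59.99, 55.6 and 65.3 FPKM in vehicle and at 48.1, 74.2 and 55.9 FPKM in sulfatide. The sulfatide libraries held both the lowest and the highest value of the 6. No difference of Tlr13 was detected (log2 fold change -0.04, 95% interval -0.38 to 0.29, limma adjusted p = 0.872). Its sign turned when vehicle replicate 4 or sulfatide replicate 1 was left out, and with replicate number as a block. Tlr9 was at 1.27, 0.910 and 1.62 FPKM in vehicle and at 1.02, 1.01 and 1.23 FPKM in sulfatide, near the filter, with overlap of the groups. Its difference was -0.11 on the log2 scale (95% interval -0.45 to 0.23, limma adjusted p = 0.645), and at this level the pseudocount of 1 shrinks any change.

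Tlr7 and Tlr13 changed places in the order. Within each vehicle library there was more Tlr7 than Tlr13 (Tlr7 to Tlr13 ratio 1.07 to 1.24), and within each sulfatide library less (0.552 to 0.722). The ratio did not overlap between groups, and 0.1 is the smallest two-sided p that an exact permutation test can give here.

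**Figure D2:**
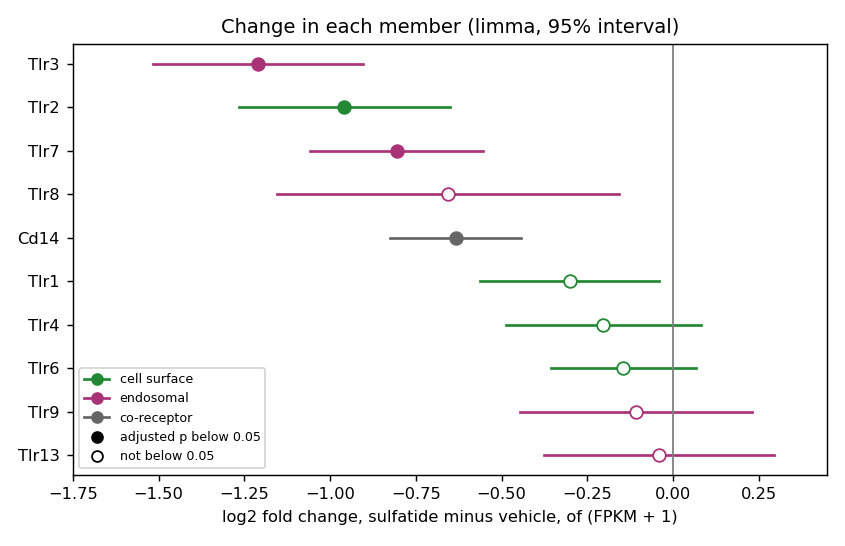
Difference of each member in log2(FPKM + 1), sulfatide minus vehicle, with the 95% interval of limma unadjusted for the number of genes (green, surface; purple, endosomal; grey, Cd14; filled, adjusted p below 0.05). Tlr3, Tlr2, Tlr7 and Cd14 were called, and both classes also hold members near 0.

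The changes of surface and endosomal receptors overlapped. Among the 4 surface receptors 1 was called lower (Tlr2) and the median log2 fold change was -0.25, with a range of -0.96 to -0.15. Among the 5 endosomal receptors 2 were called lower (Tlr3 and Tlr7) and the median was -0.66, with a range of -1.21 to -0.04. Over all genes tested 10.4% were called lower and 8.31% higher, and the median was 0.04. The endosomal median is the value of Tlr8. It moved to -0.49 when either vehicle replicate 2 or sulfatide replicate 1 was left out, to -0.89 when vehicle replicate 3 was, and to -0.42 in the fit that blocks on replicate number.

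Mean levels of each class were lower in sulfatide than in vehicle without overlap. The surface mean on the log2(FPKM + 1) scale was 5.62 to 5.82 in vehicle and 5.26 to 5.44 in sulfatide, and the endosomal mean was 4.08 to 4.45 and 3.57 to 3.85. The surface minus endosomal difference within a library was 1.24 to 1.73 in vehicle and 1.54 to 1.70 in sulfatide, so that the range of the sulfatide libraries lay inside that of the vehicle libraries. Vehicle replicate 3 had the highest Tlr2 and the lowest Tlr7 and Tlr8 of its group, and gave the highest difference between classes.

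Summed over the 9 receptors, FPKM were 664 ± 71.4 in vehicle and 400.0 ± 29.0 in sulfatide. Tlr2 was 56.0 to 68.2% of that sum in vehicle and 50.0 to 56.4% in sulfatide, and Tlr13 was 7.79 to 11.2% in vehicle and 12.7 to 17.1% in sulfatide. Surface receptors together were 69.9 to 79.7% of the sum in vehicle and 67.7 to 73.6% in sulfatide, with overlap. Without Tlr2 the remaining 3 surface receptors summed to 84.5 ± 5.12 FPKM in vehicle and 71.2 ± 5.77 in sulfatide.

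**Figure D3:**
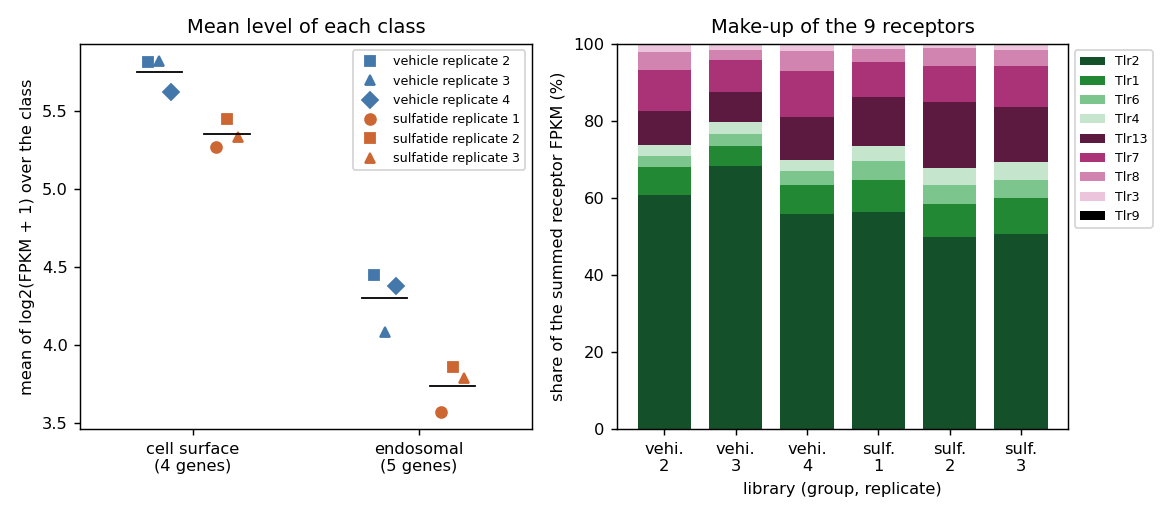
Left, mean log2(FPKM + 1) of the 4 surface and 5 endosomal receptors in each library with a line at the group mean (n = 3). Right, each receptor as a percentage of the summed FPKM of the 9 receptors in each library (greens, surface; purples, endosomal). Both class means were lower in each sulfatide library, and the Tlr13 band was wider in sulfatide.

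Genes that work with the receptors were described from 6 lists holding 58 genes, of which 54 were tested. Of these 17 were called lower and 4 higher, with a median log2 fold change of -0.20, against 10.4% called lower and 8.31% called higher over all genes tested. Leaving out vehicle replicate 2 lowered the number called lower to 8, vehicle replicate 4 to 9, sulfatide replicate 1 to 11 and sulfatide replicate 3 to 9, and the fit that blocks on replicate number gave 9. The number called lower rose to 19 without sulfatide replicate 2, 23 after rescaling to TPM and 24 with array weights. The number called higher was 2 after leaving out any library other than vehicle replicate 3, and 2 with the block.

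Among 6 co-receptors and proteins that pass ligands on, 2 fell and 1 rose (median -0.34), against 10.4% lower and 8.31% higher over all genes tested. Cd180, a Toll-like receptor relative that lacks the signalling domain, fell from 33.1 ± 2.94 to 23.4 ± 2.70 FPKM (limma adjusted p = 0.0186), and its partner Ly86 fell from 136 ± 7.77 to 103 ± 6.62 FPKM (limma adjusted p = 0.0148). Lbp, the lipopolysaccharide-binding protein, rose from 1.83 ± 0.0802 to 3.31 ± 0.730 FPKM (limma adjusted p = 0.0230). Ly96, the partner of Tlr4, was at 63.5, 65.2 and 61.8 FPKM in vehicle and at 71.3, 72.0 and 74.5 FPKM in sulfatide. Its groups did not overlap and sulfatide was the higher, but it did not pass (log2 fold change 0.19 ± 0.08, limma adjusted p = 0.122). Clec7a, the beta-glucan receptor dectin-1, was at 35.2 ± 6.13 and 20.9 ± 8.18 FPKM (limma adjusted p = 0.0676). Its adjusted p was 0.0333 without sulfatide replicate 2 and 0.224 without vehicle replicate 2. Cd180, Ly86 and Lbp each lost their calls without vehicle replicate 2 (adjusted p = 0.0877, 0.0778 and 0.0731) and without sulfatide replicate 1 (0.0564, 0.0597 and 0.0597), Cd180 and Lbp without vehicle replicate 4 (0.0605 and 0.0644), and Cd180 without sulfatide replicate 3 (0.0753). With the replicate block they were at 0.0704, 0.108 and 0.107.

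Of 11 genes that fold, move or cleave the receptors, 1 fell and 2 rose (median 0.07). Over all genes tested 10.4% were called lower, near the share that fell here, and 8.31% higher. Unc93b1, the escort that brings endosomal receptors to their compartment, was at 440, 384 and 455 FPKM in vehicle and at 334, 362 and 357 FPKM in sulfatide, without overlap. It did not pass (log2 fold change -0.28 ± 0.09, limma adjusted p = 0.0596), and passed in 3 of 15 alternative fits. Its adjusted p was 0.0162 without vehicle replicate 3 and 0.0207 after rescaling to TPM, and ranged up to 0.304 over the alternatives. Slc15a4, a transporter of endolysosomes needed for Tlr7 and Tlr9 signalling, fell from 39.5 ± 2.49 to 31.7 ± 1.98 FPKM (limma adjusted p = 0.0485, and 0.0747 to 0.166 after leaving out any library). The proteases Ctsl (1475 ± 159 to 2036 ± 201 FPKM, limma adjusted p = 0.0205) and Ctsk (5.59 ± 0.233 to 7.89 ± 0.670 FPKM, limma adjusted p = 0.0271) rose. Ctsl lost its call when sulfatide replicate 2 or 3 was left out (0.0542 and 0.0789), after rescaling to TPM (0.0645) or after quantile normalization (0.115), and Ctsk was at 0.0509 to 0.0866 after leaving out any library, at 0.0720 after rescaling to TPM and at 0.124 with the block. The receptor chaperone genes Hsp90b1 and Cnpy3 were not called (limma adjusted p = 0.408 and 0.434). Nor was Cnpy4, at 27.3 ± 5.32 and 37.4 ± 3.53 FPKM (limma adjusted p = 0.0504, with 0.00532 without vehicle replicate 3 and 0.231 with the block).

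Of 5 adaptors limma called 4 lower and none higher, against 10.4% lower and 8.31% higher over all genes tested. At an unadjusted p below 0.05, for which no share over all genes was counted, limma gave 4 lower and 0 higher. The median log2 fold change was -0.45. Pik3ap1, an adaptor that links the receptors to phosphoinositide 3-kinase, fell from 175 ± 21.7 to 110.0 ± 17.4 FPKM (limma adjusted p = 0.00842). Ticam1, the adaptor of Tlr3 and Tlr4, was at 15.2, 16.2 and 16.4 FPKM in vehicle and at 12.45, 11.7 and 10.2 FPKM in sulfatide, without overlap (log2 fold change -0.45 ± 0.11, limma adjusted p = 0.0210). Ticam2, the bridge from Tlr4 to Ticam1, fell from 18.2 ± 1.63 to 12.7 ± 1.86 FPKM (limma adjusted p = 0.0284). Myd88, the adaptor of every receptor here but Tlr3, fell by a smaller amount, from 252 ± 13.9 to 205 ± 5.10 FPKM (log2 fold change -0.29 ± 0.08, limma adjusted p = 0.0337). Myd88, Ticam1 and Ticam2 did not pass without vehicle replicate 2 (0.139, 0.0597 and 0.0667), vehicle replicate 4 (0.102, 0.0690 and 0.0687) or sulfatide replicate 3 (0.110, 0.0845 and 0.0956), nor Myd88 without sulfatide replicate 1 (0.116), nor Ticam2 without vehicle replicate 3 (0.0528). With the replicate block they were at 0.186, 0.103 and 0.102.

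Of 17 tested kinases, ubiquitin ligases and their binding partners, 7 fell and none rose by limma (median -0.23). The shares over all genes tested were 10.4% lower and 8.31% higher. At an unadjusted p below 0.05, for which no share over all genes was counted, limma gave 8 of the 17 lower and 1 higher. Irak2, a kinase that sustains the signal after Myd88, was at 51.9, 54.5 and 52.4 FPKM in vehicle and at 20.4, 22.8 and 22.7 FPKM in sulfatide. These groups were tight and far apart (log2 fold change -1.23 ± 0.09, limma adjusted p = 6.12e-05). The ubiquitin ligase Peli1 fell from 60.8 ± 3.02 to 34.6 ± 1.59 FPKM (limma adjusted p = 0.000384). The kinases Ikbke (144 ± 13.2 to 96.3 ± 5.88 FPKM, limma adjusted p = 0.00359) and Ikbkb (64.1 ± 3.19 to 45.7 ± 2.82 FPKM, limma adjusted p = 0.00590) fell too. Leaving out vehicle replicate 2, vehicle replicate 4 or sulfatide replicate 3 lowered the number of this list called lower from 7 to 4, and 1 gene was called higher with a filter at 5 FPKM, after quantile normalization and with array weights.

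Of 12 inhibitors of the pathway 9 were tested, and by limma 3 fell and none rose (median -0.32). The shares over all genes tested were 10.4% lower and 8.31% higher. At an unadjusted p below 0.05, for which no share over all genes was counted, limma gave 6 of the 9 lower and 0 higher. Socs1, which is also induced by interferon, was at 70.4, 64.8 and 53.5 FPKM in vehicle and at 20.5, 19.1 and 17.6 FPKM in sulfatide (log2 fold change -1.67 ± 0.12, limma adjusted p = 5.85e-05). The ubiquitin editor Tnfaip3 (A20) fell from 67.5 ± 5.01 to 25.3 ± 2.41 FPKM (limma adjusted p = 7.16e-05), and Trafd1, a zinc finger inhibitor that interferon also induces, fell from 357 ± 53.97 to 173 ± 23.5 FPKM (limma adjusted p = 0.00100). Irak3, the kinase-dead member of the Irak family, was at 107 ± 2.89 and 86.6 ± 17.9 FPKM (limma adjusted p = 0.127, and 0.0111 without sulfatide replicate 2), and Tollip at 26.7 ± 2.05 and 20.5 ± 3.38 FPKM (limma adjusted p = 0.0683, and 0.0191 without sulfatide replicate 2). Irak3 passed in 2 and Tollip in 3 of 15 alternative fits, and their adjusted p ranged up to 0.434 and 0.419. The number of inhibitors called lower was 5 without sulfatide replicate 2, as TPM and with array weights.

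Of 6 proteins reported as endogenous ligands of Tlr2 or Tlr4, 1 rose and none fell by limma (median -0.13). The shares over all genes tested were 8.31% higher and 10.4% lower. At an unadjusted p below 0.05, for which no share over all genes was counted, limma gave 2 of the 6 higher and 1 lower. S100a8 rose from 105 ± 11.7 to 419 ± 55.3 FPKM (limma adjusted p = 3.33e-05), while its partner S100a9 was at 21.9 ± 7.61 and 21.2 ± 12.6 FPKM (limma adjusted p = 0.804). Hmgb1 (102 ± 24.7 and 143 ± 23.5 FPKM, limma adjusted p = 0.0706, and 0.00640 without vehicle replicate 3), Tnc (4.87 ± 1.02 and 3.14 ± 0.373 FPKM, limma adjusted p = 0.0560, and 0.0120 without vehicle replicate 3) and Vcan (6.40 ± 1.39 and 5.07 ± 0.876 FPKM, limma adjusted p = 0.275) did not pass. Over all alternative fits the adjusted p of Hmgb1 ranged up to 0.386 and that of Tnc up to 0.374.

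**Figure D4:**
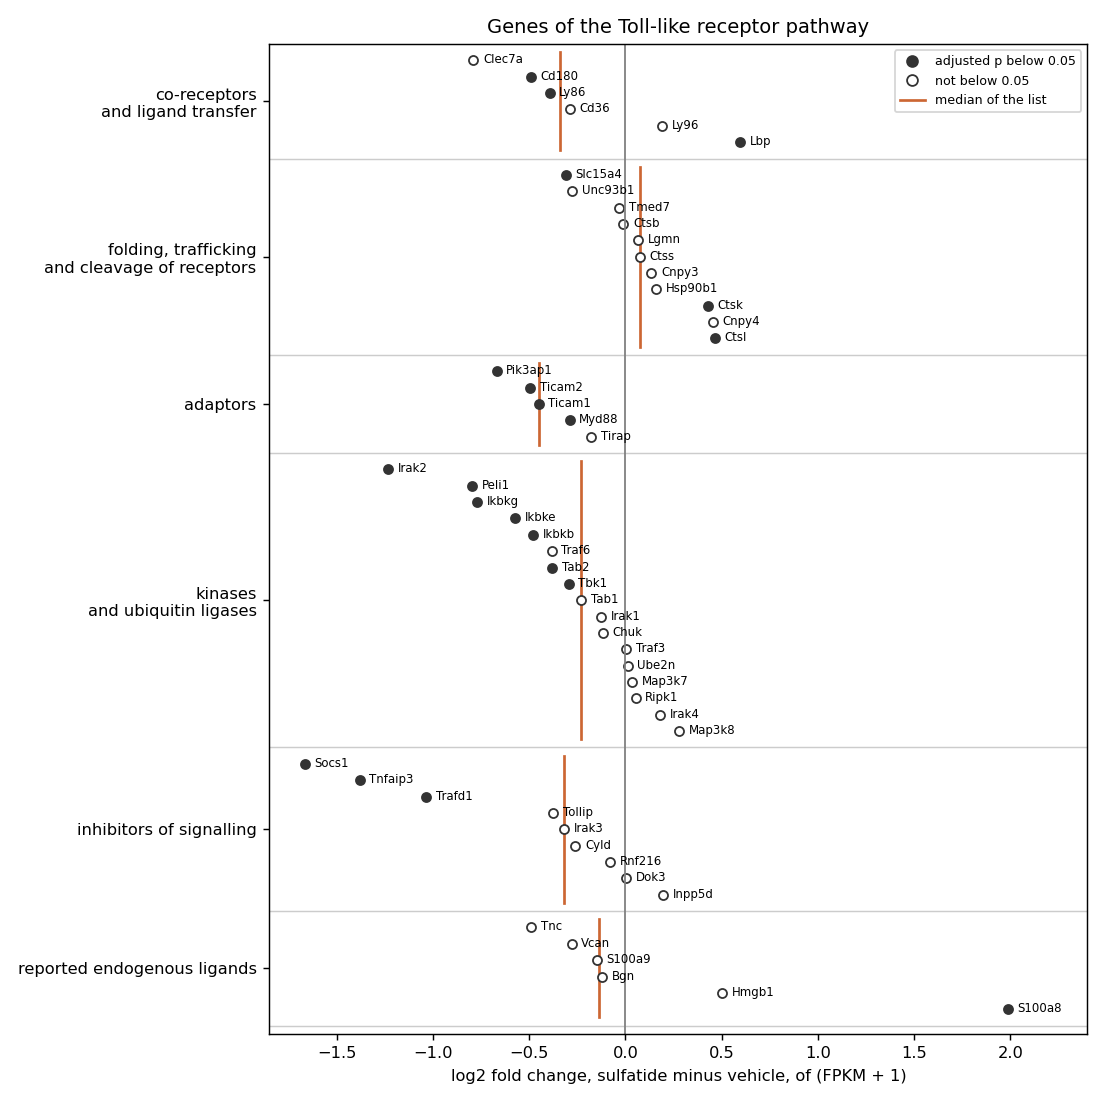
Difference in log2(FPKM + 1), sulfatide minus vehicle, of the tested genes of the 6 pathway lists, 1 point per gene (filled, limma adjusted p below 0.05), with an orange line at the median of each list. Calls in the adaptor, kinase and inhibitor lists were all lower, with Socs1, Tnfaip3 and Irak2 lowest, and S100a8 was highest.

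Other cells that carry these receptors left few transcripts. B cells and plasmacytoid dendritic cells are rich in Tlr7 and Tlr9, and conventional dendritic cells in Tlr3. Among B cell markers Ms4a1 was listed at 0 in all libraries, Cd79a did not exceed 0.120 FPKM and Cd79b did not exceed 1.35 FPKM. Of the 4 plasmacytoid markers Klk1 was listed at 0, Siglech did not exceed 0.310 FPKM, and Cox6a2, which is also a muscle gene, made up most of the sum (14.6 to 16.0 FPKM in vehicle and 15.6 to 20.6 in sulfatide). The 5 conventional dendritic cell markers summed to 0.410 to 0.510 FPKM in vehicle and 1.55 to 2.85 in sulfatide. Cd209a, listed at 0 in each vehicle library and at 2.36, 1.19 and 2.59 FPKM in sulfatide, accounted for that difference. It reached the filter only through the sulfatide libraries, so no test is given for it. The other 4 were too low to be tested: Xcr1 was listed at 0 in all libraries, and Flt3, Zbtb46 and Clec9a had lower means in sulfatide. For Flt3 these were 0.160 FPKM with vehicle against 0.113, and for Clec9a 0.120 against 0.107, and Zbtb46 ranged from 0.12 to 0.24 FPKM with vehicle and from 0.10 to 0.15 after sulfatide.

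Markers of neutrophils, which carry Tlr2, Tlr4 and Cd14, and of monocytes were present at modest levels. The 7 neutrophil genes summed to 80.0 to 124 FPKM in vehicle and 98.0 to 162 in sulfatide, and the defining Ly6g, Cxcr2 and Retnlg stayed below 1 FPKM in all libraries. Of the 4 tested, limma called Mmp8 higher (adjusted p = 0.0439) and none lower. Over all genes tested 8.31% were called higher and 10.4% lower. At an unadjusted p below 0.05, for which no share over all genes was counted, limma gave 2 of these 4 higher and 1 lower. Mmp9 had a lower mean after sulfatide, 3.77 ± 1.68 against 6.30 ± 1.44 FPKM (limma adjusted p = 0.0978). The 5 monocyte genes summed to 23.9 to 38.0 FPKM in vehicle and 21.9 to 36.7 in sulfatide, and limma called none. At an unadjusted p below 0.05 limma gave 0 of them lower and 1 higher, again without a share over all genes. T, NKT and NK cell markers summed to at most 0.380 FPKM and epithelial markers to at most 0.230 FPKM in any library. Of the 10 alveolar macrophage genes 5 were tested and 1 was called, against 18.7% of all genes tested called in either direction. This was Itgax, which dendritic cells share and which was lower (limma adjusted p = 0.0159). Siglecf, below the filter, was higher in each sulfatide library than in any vehicle library (mean 0.157 and 0.790 FPKM in vehicle and sulfatide), and Chil3 was at 25.1 ± 5.57 and 31.2 ± 12.6 FPKM (limma adjusted p = 0.505). The part of these cells in the receptor levels was not tested.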

How the data were processed

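RNA from lavage cells was measured in 6 libraries (3 vehicle, 3 sulfatide), grouped by sample title. Per the labels' protocols, libraries were poly(A)-selected and strand-specific, and the submitters' processing notes name the build mm10. For the aligner, counting program and annotation, nothing is given in the sources used here. The authors deposited FPKM values with 2 decimals. Another 3 value columns matched no sample and were not used. Because FPKM are not counts, log2(FPKM + 1) was fitted with limma 3.58.1 in R 4.3.3 (lmFit, eBayes with an intensity trend, two-sided, Benjamini-Hochberg over the 10405 genes at 1 FPKM or more in at least 3 libraries), and genes with an adjusted p below 0.05 were called. The fit was tested on simulated data. Folds are ratios of mean FPKM.

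The members and gene lists were chosen with earlier results of these data known, so no list was given a test. Named were the 10 members, the 3 other receptors, up to 4 genes with the smallest p of each pathway list, Myd88, Ticam1, Ly96, Unc93b1, Irak3 and Tnfaip3 whatever their result, and cell type markers. Outside this rule and chosen after their values were seen were Hsp90b1, Cnpy3, S100a9 and the antisense gene Gm45542. Positions and transcripts are from GENCODE M21 and promoters from RefSeq, both on GRCm38, the assembly also called mm10. A planned comparison of protein sequences was not made, and 1 cell type marker is not reported here. Alternatives were other pseudocounts (0.1, 0.5), a filter at 5 FPKM or none, TPM, quantile normalization, array weights, no intensity trend, a replicate block and leaving out each library. The block takes the difference between groups from the libraries numbered 2 and 3 only, so it rests on fewer libraries than the other fits.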

Additional observations from a re-analysis of the deposited data

How the results depend on the processing

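Tlr2, Tlr3, Tlr7 and Cd14 kept their call and direction under all 15 alternatives. Tlr3 passed the filter at 5 FPKM through its vehicle libraries alone, as no sulfatide library exceeded 4.33 FPKM. That alternative is therefore no support for the difference of Tlr3. The number of members called lower was 4 to 6, with 5 after rescaling to TPM and 6 with array weights, and none was called higher. Surface receptors called lower were 2 after rescaling to TPM (surface median -0.36), 2 with array weights and 1 to 2 after leaving out 1 library. The endosomal median was -0.83 with array weights, -0.42 with the replicate block and -0.89 to -0.49 after leaving out 1 library. The sign turned for Tlr13 with the replicate block (0.15), on leaving out vehicle replicate 4 (0.0171) or sulfatide replicate 1 (0.0967), and for Tlr9 with the block (0.0240) and on leaving out vehicle replicate 4 (0.00140). Leaving out 1 library in turn gave -0.21 to 0.0967 for Tlr13 and -0.23 to 0.00140 for Tlr9. Pathway genes called lower were 23 as TPM, 24 with array weights, 9 with the block and 8 to 19 after leaving out 1 library. Those called higher were 2 with no filter, 2 as TPM, 8 with array weights, 2 with the block and 2 to 6 after leaving out 1 library. Over all genes the lower calls were 1527 as TPM, 1723 with array weights, 635 with the block and 642 to 1135 after leaving out 1 library. The higher calls numbered 522 with no filter, 467 as TPM, 2054 with array weights, 297 with the block and 268 to 1421 after leaving out 1 library. Higher calls were 44.5% of all calls, against 23.4% as TPM, 50.02% after quantile normalization, 54.4% with array weights and 56.1% on leaving out vehicle replicate 3. Rescaling to TPM divides each value by the summed FPKM of its library, which was 1.13e+06 to 1.17e+06 in vehicle and 1.22e+06 to 1.25e+06 in sulfatide. Beyond this the cause of the shifts was not tested. Only replicate numbers 2 and 3 occur in both groups, and deviations from the group means correlated at 0.156 and -0.303 over genes within these pairs. Between libraries of unlike number they correlated at -0.399 (vehicle 4 with sulfatide 1) to 0.538 (vehicle 3 with sulfatide 1). The numbers were therefore not taken to pair the samples, and the source of the variation that libraries share across groups was not tested. The number of fragments behind each value is unknown, and Tlr9, Lbp and Cd209a lie near the filter.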
